A study of Mus musculus with 40 samples.

Results

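The glucocorticoid receptor gene Nr3c1 and 7 genes that the receptor is known to induce, Tsc22d3, Fkbp5, Zbtb16, Sgk1, Errfi1, Cebpb and Cebpd, were followed in skeletal muscle of mice that ran or rested at different times of day. They were taken by name, 8 of the 23621 genes in the count table, and all 8 passed the filter on low counts in both muscles.

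The glucocorticoid receptor is a hormone-activated transcription factor. It waits in the cytoplasm in a complex with heat shock protein 90 and co-chaperones, binds corticosterone, the main glucocorticoid of mice, and moves to the nucleus, where it binds glucocorticoid response elements in DNA. In rodents corticosterone peaks around the start of the dark, active phase, and physical exertion raises it. In muscle, glucocorticoids are known for shifting metabolism from glucose to fat and for promoting protein breakdown. Several of the 7 target genes also answer to other signals that exercise sends, such as calcium, cAMP and growth factors.

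All mice were C57BL/6, and the labels give neither sex nor age. Quadriceps was taken from sedentary mice at zeitgeber time (ZT, hours after lights on) 0, 4, 12 and 16, and from mice that ran on a treadmill until exhausted in a session at ZT0 or ZT12. The runners were sampled either at once (+0h, labelled ZT0.5 and ZT12.5) or 3 h later (+3h, labelled ZT3.5 and ZT15.5). Gastrocnemius was taken at ZT4 or ZT16 from mice whose running wheel was open either by night or by day; the night group carries a control title, but no gastrocnemius group went without a wheel. Quadriceps groups had 3 libraries and gastrocnemius groups 4, each library with its own animal tag. The run to exhaustion has no time-matched group that was handled or placed on a still treadmill among these samples, so exercise and the handling that came with it cannot be told apart.

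Short stretches upstream of annotated start sites are shown here for 3 of the target genes, chosen because they hold the elements searched for and overlap no annotated exon. The RefSeq table (GRCm38.p6) held 13 start sites for 5 of the 8 genes; the 250 bases before each were searched on both strands for the half-site AGAACA, for a pair of GNACA half-sites facing each other across 3 bases (the form of a full glucocorticoid response element, which contains part of the half-site above), and for TGACG, the core of the cAMP response element. Matches are in capitals, and each sequence is written 5′ to 3′ in the direction of the gene.
Sgk1, chr10:21993640-21993889, plus strand: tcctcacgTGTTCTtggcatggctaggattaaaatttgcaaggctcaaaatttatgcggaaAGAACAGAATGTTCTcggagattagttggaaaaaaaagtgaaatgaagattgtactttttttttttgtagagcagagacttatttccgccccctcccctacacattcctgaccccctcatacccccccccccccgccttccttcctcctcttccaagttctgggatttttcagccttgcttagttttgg
Cebpb, chr2:167688665-167688914, plus strand: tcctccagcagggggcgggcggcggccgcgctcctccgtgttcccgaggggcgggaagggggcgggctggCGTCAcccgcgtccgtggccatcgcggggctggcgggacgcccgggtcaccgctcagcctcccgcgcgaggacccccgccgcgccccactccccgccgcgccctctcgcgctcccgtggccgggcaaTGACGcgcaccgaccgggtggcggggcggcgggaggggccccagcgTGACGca
Tsc22d3, chrX:140548572-140548821, minus strand: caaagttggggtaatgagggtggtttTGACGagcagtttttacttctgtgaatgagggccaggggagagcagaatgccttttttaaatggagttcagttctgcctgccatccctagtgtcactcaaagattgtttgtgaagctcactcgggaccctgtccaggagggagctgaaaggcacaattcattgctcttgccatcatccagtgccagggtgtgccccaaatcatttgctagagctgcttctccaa
The Sgk1 stretch lies before the fifth of 6 listed start sites. It held 3 half-sites, 2 of which overlap the only facing pair found in any window of these genes. Such a pair was present in 127 of 32851 upstream windows in the table (0.387%), at least 1 half-site in 16.1% and at least 1 TGACG in 17.8%. The only Cebpb window held 3 TGACG matches. Of 3 Tsc22d3 windows, 1 held the TGACG shown and another held a half-site. Of 2 Errfi1 windows, 1 held a pair of overlapping TGACG matches, and the Fkbp5 window held none of the motifs. A match in these letters is not evidence of binding, and much receptor binding lies farther from start sites than these windows reach.

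By RefSeq positions on GRCm38.p6, Errfi1 lies at chr4:150853796-150868889, Cebpb at chr2:167688915-167690432, Cebpd at chr16:15887286-15889545, Sgk1 at chr10:21882184-21999903, Tsc22d3 at chrX:140539528-140600522, Fkbp5 at chr17:28398753-28486149, Zbtb16 at chr9:48651797-48836225 and Nr3c1 at chr18:39410545-39519421. Values below are CPM, counts scaled to a common library size with edgeR's TMM factors. Changes are log2 fold changes with their standard error (SE), and adjusted p values come from edgeR's quasi-likelihood test over all genes; a gene passed at an adjusted p under 0.05.

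Libraries held between 27352875 and 79491649 counts. Skeletal muscle markers such as Ckm, Acta1 and Myh4 summed to 148261 CPM or more in every library. Summed markers of other cells varied: adipocyte markers (7 genes, Adipoq and Plin1 among them) from 228 to 2346 CPM in quadriceps and from 152 to 204 in gastrocnemius, slow fibre markers from 67.6 to 2328 CPM, and macrophage markers from 44.7 to 159 CPM. Neutrophil and lymphocyte markers stayed at or below 4.60 and 1.18 CPM summed, with the neutrophil gene Ly6g at 0 in 22 of 24 quadriceps libraries. In whole muscle, a change in the number of cells of a type and a change in RNA per cell cannot be told apart. Treadmill +0h ZT12 replicate 1 stood apart from its group for Fkbp5 and Zbtb16. Another library, treadmill +3h ZT12 replicate 1, was the lowest of its group for Cebpd, Sgk1, Tsc22d3, Fkbp5, Zbtb16, Errfi1 and Cebpb. Values without the first are given for Fkbp5 and Zbtb16, and values without the second for Cebpd.

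At the end of the run, 5 of the 8 genes were raised in the ZT0 session, Errfi1, Cebpd, Cebpb, Tsc22d3 and Sgk1, and 3 of them, Errfi1, Cebpb and Tsc22d3, in the ZT12 session. Over all 15097 genes tested, 6.82% passed in the ZT0 session and 4.6% in the ZT12 session. None of the 8 was lowered in either session. The groups did not overlap for 5 of the 8 genes in each session, against 24.9% and 20.2% of all genes. The median change of the 8 was 1.07 in the ZT0 session and 0.64 in the ZT12 session, where all genes had a median of 0.00029 and -0.0034.

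Errfi1 encodes MIG6, a feedback inhibitor of the epidermal growth factor receptor family. Sedentary ZT0 libraries held 33.0, 24.7 and 30.1 CPM of Errfi1, and the libraries taken after the ZT0 run held 175, 209 and 193. At ZT12 the sedentary libraries held 35.4, 44.8 and 43.3 CPM and the runners 216, 204 and 231. Runners were far above sedentary mice in both sessions, with no overlap. The change was 2.72 on the log2 scale (SE 0.43, adjusted p = 0.00112), a 6.59-fold rise, in the ZT0 session. In the ZT12 session it was 2.40 (SE 0.43, adjusted p = 0.00254), or 5.27-fold.

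At +3h Errfi1 was not above sedentary mice in either session on average. The +3h libraries held 34.0, 19.7 and 15.8 CPM after the ZT0 run against 27.2, 90.1 and 45.3 in sedentary mice at ZT4, a difference of -1.23 (SE 0.42) that did not pass (adjusted p = 0.0612). After the ZT12 run they held 23.8, 58.1 and 45.1 CPM against 46.4, 43.2 and 102 at ZT16 (-0.59, SE 0.41, adjusted p = 0.375). In each sedentary group of these later hours 1 library was well above the other two. The ZT0 difference passed without runner replicate 1 (-1.61, adjusted p = 0.0352), without sedentary ZT4 replicate 1 (-1.55, adjusted p = 0.0237) and with DESeq2 (adjusted p = 0.0284). With any other library left out it did not pass, and over all removals it ranged from -1.61 to -0.65. Against the sedentary ZT12 group instead, the ZT12 +3h difference turned to 0.04.

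**Figure D1:**
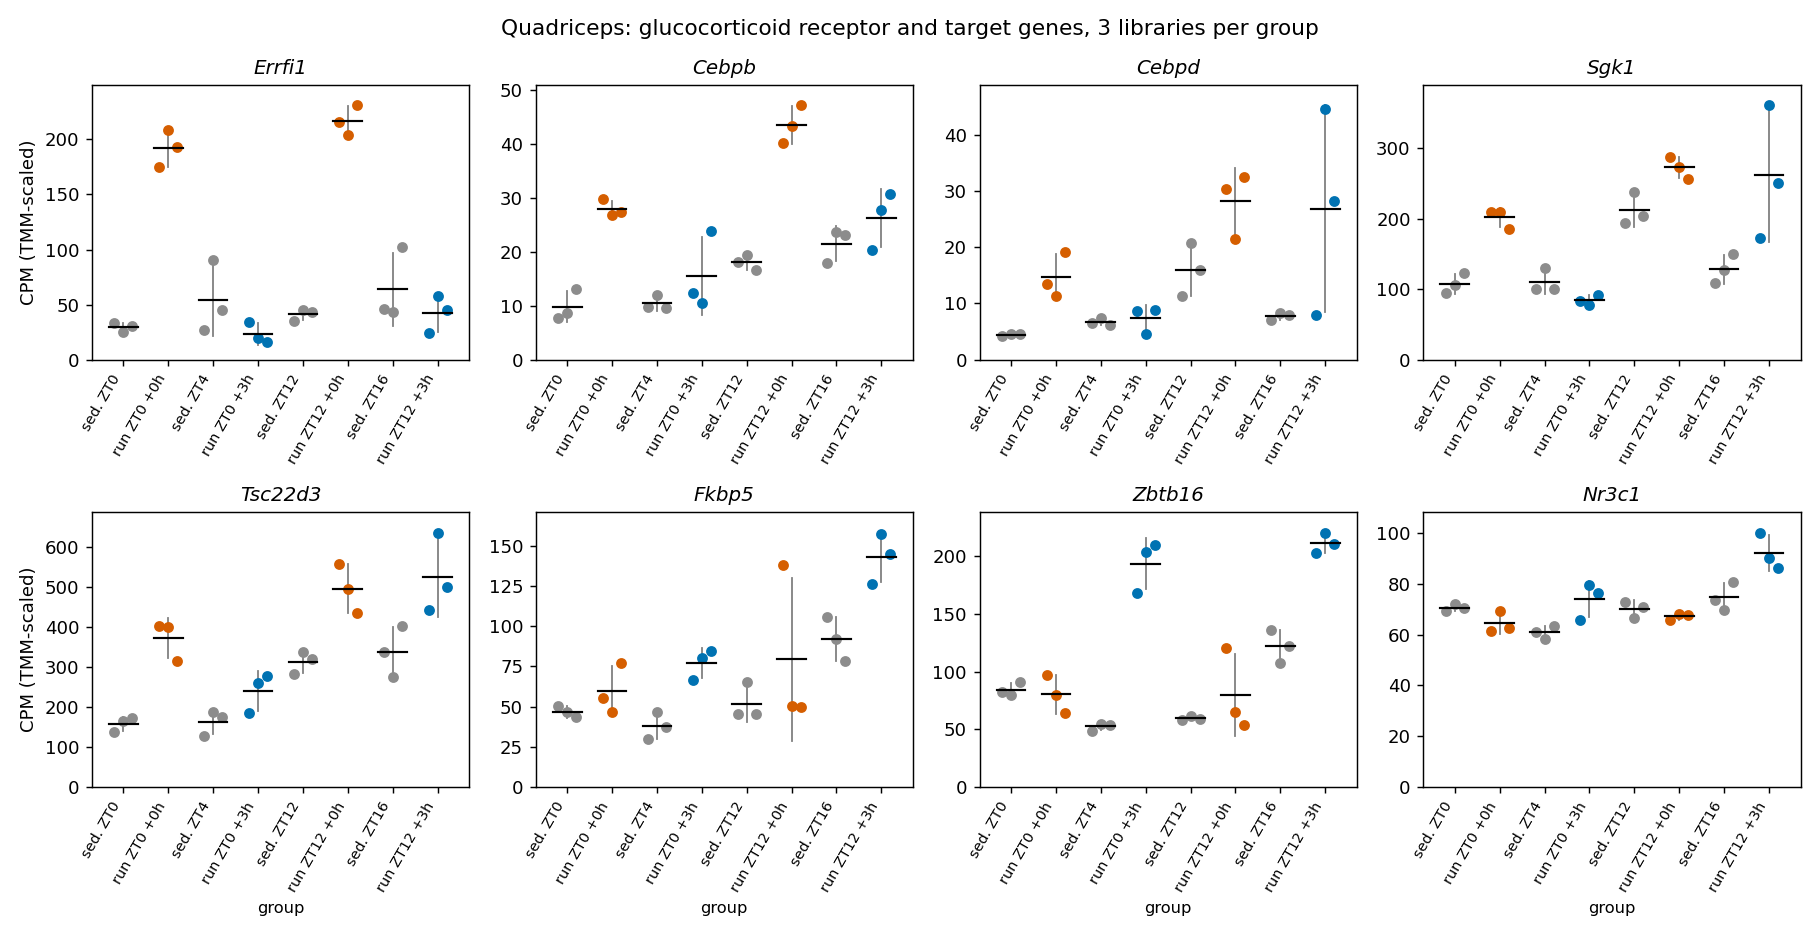
Expression of the 8 genes in quadriceps, in CPM on a linear axis starting at 0; points are single libraries, black bars are group means, grey lines are 1 SD, grey points are sedentary mice, orange points were taken at the end of the run and blue points 3 h later. Errfi1 and Cebpb peak in the orange groups of both sessions, whereas Zbtb16 peaks in the blue groups, near 200 CPM.

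Cebpb and Cebpd encode C/EBPβ and C/EBPδ, related leucine zipper transcription factors that take part in adipocyte differentiation, in inflammation and in the muscle response to glucocorticoids. Cebpb was at 7.79, 8.66 and 13.0 CPM in sedentary ZT0 libraries and at 29.7, 26.7 and 27.3 CPM at the end of the ZT0 run. In the ZT12 session the values were 18.1, 19.3 and 16.5 CPM at rest and 40.1, 43.3 and 47.1 CPM after running. Runners were higher in both sessions without overlap. Cebpb rose by 1.51 (SE 0.25, adjusted p = 0.00114) at ZT0 and by 1.27 (SE 0.24, adjusted p = 0.00358) at ZT12. At +3h the changes were 0.58 (SE 0.24, adjusted p = 0.135) and 0.29 (SE 0.24, adjusted p = 0.470), and the groups overlapped. At +3h of the ZT0 session the runners held 12.3, 10.5 and 23.8 CPM against 9.68, 11.9 and 9.59 CPM at ZT4. Leaving out 1 library, that change ranged from 0.13 to 0.80. It passed only without runner replicate 2 (0.80, adjusted p = 0.0438).

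Cebpd was raised at +0h of the ZT0 session and at +3h of the ZT12 session, and no test of the difference between the sessions passed for it with all libraries. At the end of the ZT0 run it was at 13.4, 11.3 and 19.2 CPM against 4.15, 4.48 and 4.54 CPM at rest, a change of 1.73 (SE 0.44, adjusted p = 0.0244). The groups did not overlap, but leaving out any library other than runner replicate 2 ended the call (adjusted p up to 0.108), with changes of 1.50 to 1.78. Against sedentary ZT4 mice the change was 1.12 (adjusted p = 0.123). At +3h of that session the libraries held 8.67, 4.55 and 8.78 CPM against 6.49, 7.38 and 6.19 at ZT4 (0.13, SE 0.43). In the ZT12 session the sedentary libraries already held 11.4, 20.7 and 15.9 CPM, and the +0h libraries held 30.4, 21.4 and 32.5, a difference that did not pass (0.81, SE 0.41, adjusted p = 0.334). Against sedentary ZT16 mice it was 1.86 and passed (adjusted p = 0.0122).

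At +3h of the ZT12 session Cebpd was at 7.86, 44.6 and 28.1 CPM against 6.99, 8.33 and 7.96 at ZT16. Replicates 2 and 3 were far above the sedentary libraries and replicate 1 was within their range. The change was 1.79 (SE 0.42, adjusted p = 0.00652). Without replicate 1 it was 2.23, without replicate 2 it was 1.22 and no longer passed (adjusted p = 0.0525), and against the sedentary ZT12 group it was 0.75 (adjusted p = 0.224). With the spread taken from the compared groups alone it was 1.78 and did not pass (adjusted p = 0.181). Neutrophil markers summed to between 1.00 and 4.60 CPM in these runners against 0.959 to 1.48 CPM at ZT16, with 2 of 4 tested genes raised, and their part in the +3h results was not tested.

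Summed adipocyte markers were higher in part of the libraries in which Cebpd was high. At the end of the ZT0 run they summed to 1503, 295 and 1771 CPM in replicates 1 to 3, against 228 to 651 CPM in sedentary ZT0 libraries; none of the 7 marker genes passed. Macrophage markers summed to 109 to 135 CPM in that group against 77.6 to 91.4 CPM at rest, with 0 of 7 genes passing. In the ZT12 session, where Cebpd was highest, adipocyte markers summed to 233 to 783 CPM at +0h against 453 to 2346 CPM in sedentary ZT12 libraries. At +3h of that session they summed to 457 to 951 CPM against 361 to 546 CPM at ZT16. The part of adipocyte and macrophage RNA in the rises of Cebpd and Cebpb was not tested.

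Sgk1 encodes a serine/threonine kinase that acts on ion channels and on FOXO transcription factors. It was at 94.5, 106 and 122 CPM in sedentary ZT0 libraries and at 209.9, 209.8 and 186 CPM at the end of the ZT0 run, with no overlap. This was a rise of 0.91 (SE 0.19, adjusted p = 0.00599). Without sedentary ZT0 replicate 1 the change was 0.82 and the adjusted p 0.0501. In the ZT12 session Sgk1 was at 194, 238 and 203 CPM at rest and 287, 274 and 257 CPM at the end of the run, which did not overlap but did not pass the test (0.37, SE 0.19, adjusted p = 0.339). It passed against sedentary ZT16 mice (1.09, adjusted p = 0.00174).

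At +3h the Sgk1 responses of the sessions differed. After the ZT0 run it was at 83.5, 77.4 and 92.0 CPM against 101, 131 and 100.3 CPM at ZT4 (-0.39, SE 0.19, adjusted p = 0.193). After the ZT12 run it was at 172, 361 and 251 CPM against 109, 127 and 149.9 CPM at ZT16, a rise of 1.02 (SE 0.19, adjusted p = 0.000911). The test of the difference between these responses passed, at 1.42 (SE 0.27, adjusted p = 0.00980), with no overlap in either session and opposite directions. Leaving out 1 library, the ZT12 rise ranged from 0.72 to 1.25 and the difference from 1.11 to 1.64, and both calls stayed. With the spread taken from the compared groups alone neither this difference (adjusted p = 0.116) nor the ZT12 rise itself (1.02, adjusted p = 0.0924) passed. Against sedentary ZT12 mice, whose Sgk1 was higher than at ZT16, the ZT12 +3h change was 0.31 (adjusted p = 0.280).

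Tsc22d3 encodes GILZ, a leucine zipper protein that mediates part of the anti-inflammatory action of glucocorticoids. Sedentary ZT0 libraries held 138, 164 and 172 CPM, and libraries at the end of the ZT0 run 402, 399.9 and 316 CPM. At ZT12 the values were 283, 338 and 319 CPM at rest and 559, 495 and 434 CPM after the run. Tsc22d3 was higher in runners in both sessions, without overlap, and was the only one of the 8 to pass in all 4 run comparisons. The changes at +0h were 1.24 (SE 0.18, adjusted p = 0.000470) at ZT0 and 0.66 (SE 0.18, adjusted p = 0.0401) at ZT12.

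At +3h Tsc22d3 was at 184, 261 and 278 CPM after the ZT0 run against 127, 186 and 174 CPM at ZT4 (0.57, SE 0.18, adjusted p = 0.0429). After the ZT12 run it was at 442, 636 and 499 CPM against 336, 276 and 402 CPM at ZT16 (0.64, SE 0.18, adjusted p = 0.0194). The first pair of groups overlapped in 1 value and the second did not. All but the first of the 4 changes were near the threshold: the ZT12 +0h call was lost without any library but runner replicate 3 (changes of 0.57 to 0.72), the ZT0 +3h call without any but runner replicate 1 and sedentary ZT4 replicate 2 (0.42 to 0.62), and the ZT12 +3h call without runner replicate 2 or sedentary ZT16 replicate 1 or 2 (0.48 to 0.63). The call at ZT12 +0h was also lost against the sedentary ZT16 group (0.55, adjusted p = 0.0682). Without the filter on low counts the ZT12 +0h and ZT0 +3h changes of Tsc22d3 did not pass (adjusted p = 0.0589 and 0.0630), and with the spread taken from the compared groups alone neither +3h change passed (adjusted p = 0.173 at ZT0 and 0.0640 at ZT12).

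At +3h 4 of the 8 genes were raised in the ZT0 session, Zbtb16, Fkbp5, Tsc22d3 and Nr3c1. In the ZT12 session 5 were raised, Cebpd, Sgk1, Zbtb16, Tsc22d3 and Nr3c1, and none was lowered in either. Over all genes 13.6% passed in the ZT0 session and 17.2% in the ZT12 session. Groups did not overlap for 4 and 5 of the 8, against 30.7% and 32.9% of all genes. The median change of the 8 was 0.42 and 0.64, against -0.0048 and -0.0026 over all genes. Skeletal muscle markers summed to 197289 to 220459 CPM in the ZT12 runners against 157539 to 178317 CPM in sedentary mice at ZT16, with 4 of 7 genes raised. Endothelial markers summed to 250.02 to 267 CPM against 217 to 238 CPM, with 2 of 6 genes raised and 1 lowered, and the part of both in the +3h results was not tested. With the spread taken from the compared groups alone, 2 of the 8 passed in the ZT0 session and 3 in the ZT12 session. In the ZT0 session 2 passed without the filter on low counts and 2 against sedentary ZT0 mice.

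Zbtb16 encodes PLZF, a zinc finger transcription repressor that is strongly induced by glucocorticoids in many tissues. At the end of the runs it was at 97.3, 79.4 and 63.8 CPM (ZT0) and at 121, 65.2 and 53.3 CPM (ZT12), against 82.1, 80.1 and 90.9 CPM and 58.2, 61.4 and 59.1 CPM at rest. Apart from replicate 1 of the ZT12 run, these values were close to or below those at rest. The changes were -0.07 (SE 0.21) and 0.42 (SE 0.21), neither passing, and without that replicate the ZT12 change was -0.01.

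At +3h the picture for Zbtb16 was different. After the ZT0 run it was at 168, 203 and 209 CPM against 48.5, 54.9 and 54.1 CPM at ZT4, and after the ZT12 run at 203, 220.5 and 210.3 CPM against 136, 107 and 122 CPM at ZT16. Runners of both sessions reached about the same level without overlap with their controls. The rise was 1.88 (SE 0.21, adjusted p = 1.53e-05), 3.69-fold, in the ZT0 session and 0.79 (SE 0.21, adjusted p = 0.0114), 1.73-fold, in the ZT12 session, where sedentary mice were higher. The difference between the sessions was -1.09 (SE 0.29) and did not pass (adjusted p = 0.0708); it passed with DESeq2 (adjusted p = 0.00864) and with the compared groups alone (adjusted p = 0.00408). Without sedentary ZT16 replicate 2 the ZT12 rise was 0.71 with an adjusted p of 0.0552.

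Fkbp5 encodes FKBP51, a co-chaperone that lowers the hormone affinity of the receptor and so closes a feedback loop. After the ZT0 run it was at 55.5, 46.4 and 77.0 CPM at +0h and at 66.7, 80.2 and 84.2 CPM at +3h, against 50.4, 46.6 and 43.2 CPM in sedentary mice at ZT0 and 30.1, 46.5 and 37.3 CPM at ZT4. The +3h libraries stood above the ZT4 ones, and the +0h libraries overlapped those at ZT0. The +3h change was 1.02 (SE 0.31, adjusted p = 0.0370). It was lost without any library but runner replicate 1 and sedentary ZT4 replicate 2 (changes of 0.88 to 1.01), with the replicate number as a block (adjusted p = 0.0526), without the filter on low counts (adjusted p = 0.0551) and against sedentary ZT0 mice (0.72, adjusted p = 0.137).

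In the ZT12 session Fkbp5 was at 138, 50.6 and 49.5 CPM at +0h against 45.3, 65.0 and 45.2 CPM at rest. Replicate 1 was far above the other 2 libraries. The change of 0.61 (SE 0.31, adjusted p = 0.336) became -0.05 without it. At +3h Fkbp5 was at 126, 157 and 145 CPM, the highest of all quadriceps groups, against 106, 92.0 and 78.2 CPM at ZT16. These did not overlap, and the change of 0.63 (SE 0.31) did not pass (adjusted p = 0.184), though it passed with the compared groups alone (adjusted p = 0.0143) and against sedentary ZT12 mice (1.46, adjusted p = 0.00322).

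Nr3c1, the receptor gene itself, had the smallest changes that passed. After the ZT0 run its +3h libraries held 65.8, 79.4 and 76.3 CPM against 61.1, 58.1 and 63.4 CPM at ZT4, and after the ZT12 run 100.1, 90.1 and 86.3 CPM against 73.6, 69.6 and 80.7 CPM at ZT16. Runners were higher without overlap in both. The rises were 0.28 (SE 0.07, adjusted p = 0.0128) and 0.30 (SE 0.07, adjusted p = 0.00552), or 1.21-fold and 1.23-fold. The first did not pass with the compared groups alone (0.27, adjusted p = 0.0791), against sedentary ZT0 mice (0.07, adjusted p = 0.596), without runner replicate 2 (0.22, adjusted p = 0.0785) or without sedentary ZT4 replicate 2 (0.25, adjusted p = 0.0650). At +0h the changes were -0.13 and -0.06 (SE 0.07 each), and neither passed.

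**Figure D2:**
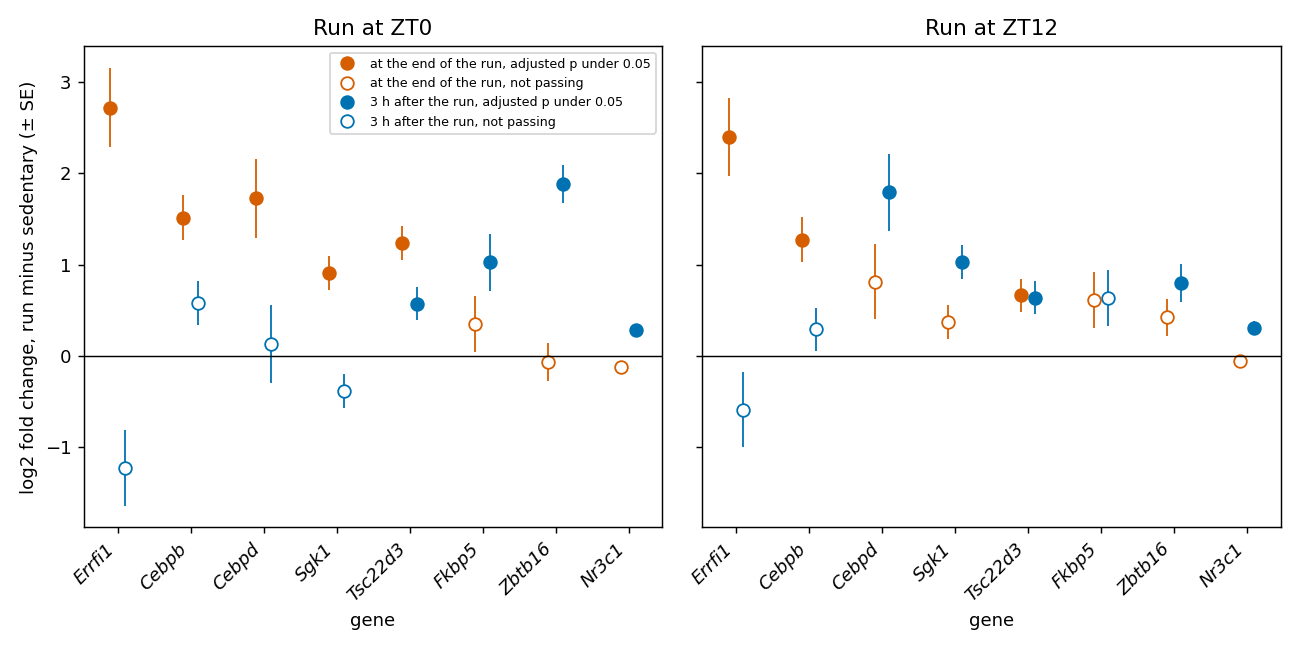
Log2 fold changes of the 8 genes, run minus sedentary, with bars of 1 SE, at the end of the run (orange) and 3 h later (blue) in the ZT0 session (left) and the ZT12 session (right); filled points passed at an adjusted p under 0.05. Errfi1 and Cebpb pass only at the end of the run, and Zbtb16 and Nr3c1 only 3 h later, in both panels.

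Comparing sessions directly, none of the 8 genes passed a test of the difference between the +0h responses. Over all 15097 genes tested, 0 passed that comparison with edgeR (0%), with 1912 genes, 1 of them Tsc22d3, at an unadjusted p under 0.05; DESeq2 called 18 genes and none of the 8. The ZT12 response minus the ZT0 response was -0.57 for Tsc22d3 (SE 0.25, adjusted p = 0.362) and -0.54 for Sgk1 (SE 0.26, adjusted p = 0.409). At +3h 1.59% of all genes passed and 1 of the 8, Sgk1, as above. For Cebpd the +3h responses differed by 1.66 (SE 0.60) and did not pass (adjusted p = 0.206). Leaving out 1 library, the difference ranged from 1.09 to 2.10. It passed only without treadmill +3h ZT12 replicate 1 (2.10, adjusted p = 0.0140), the lowest of 3 widely spread libraries (7.86, 44.6 and 28.1 CPM).

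Most of these genes differed between times of day in sedentary quadriceps. A test for any difference among the 4 sedentary groups passed for 7 of the 8 genes, all but Errfi1 (adjusted p = 0.198), and for 17.1% of all genes. Between ZT0 and ZT12, the sedentary groups next to the 2 sessions, 4 of the 8 were higher at ZT12, Cebpd, Tsc22d3, Sgk1 and Cebpb, and none was lower, while 16.1% of all genes passed. Groups did not overlap for 6 of the 8, against 34.5% of all genes. The +0h comparison of the ZT0 session uses the same sedentary ZT0 libraries, so the 2 sets of changes are given side by side and are not independent.

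In sedentary muscle Cebpd was 1.87 higher at ZT12 than at ZT0 (SE 0.43, adjusted p = 0.00800) and 1.73 higher after the ZT0 run. Tsc22d3 was 0.98 higher at ZT12 (SE 0.18, adjusted p = 0.00136), and 1.24 higher after the run. The values for Sgk1 were 0.97 (SE 0.19, adjusted p = 0.00203) and 0.91, and those for Cebpb 0.88 (SE 0.25, adjusted p = 0.0217) and 1.51. The Cebpb difference lost its call without sedentary ZT0 replicate 1 or 2 or sedentary ZT12 replicate 1 or 2 (changes of 0.74 to 0.87). Adipocyte markers summed to 2346, 925 and 453 CPM in the sedentary ZT12 replicates 1 to 3, in which Cebpd was at 11.4, 20.7 and 15.9 CPM. Between ZT12 and ZT0 1 of 7 adipocyte genes passed. Endothelial markers summed to 162 to 214 CPM at ZT12 and 248 to 299 CPM at ZT0, with 5 of 6 genes lowered. The part of adipocyte and endothelial RNA in these differences was not tested.

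Fkbp5 and Zbtb16 were not among the genes that were higher at ZT12 than at ZT0. Both were highest at ZT16 among sedentary groups, Fkbp5 at 92.0 ± 13.9 CPM (SD, n = 3) and Zbtb16 at 122 ± 14.1 CPM, and lowest at ZT4, at 37.9 ± 8.24 CPM and 52.5 ± 3.45 CPM. Sedentary Tsc22d3 and Cebpb also had their highest means at ZT16, 338 ± 63.0 CPM and 21.5 ± 3.21 CPM. Their ZT16 libraries overlapped those at ZT12, with means of 313 ± 27.6 CPM and 18.0 ± 1.41 CPM. Across the 4 sedentary groups the highest and lowest differed by 1.28 for Fkbp5 and by 1.21 for Zbtb16. The test for any difference among these groups gave an adjusted p of 0.0262 for Fkbp5 and 0.00144 for Zbtb16. Between ZT12 and ZT0 Zbtb16 differed by -0.50 (SE 0.21, adjusted p = 0.105), without overlap, and with the compared groups alone the difference passed (-0.50, adjusted p = 0.00347). Nr3c1 ran from 60.9 ± 2.69 CPM at ZT4 to 74.6 ± 5.61 CPM at ZT16, a largest gap of 0.29. In the test for any difference among the 4 sedentary groups its adjusted p was 0.0332. This call was lost without sedentary ZT0 replicate 3, any ZT4 replicate, or ZT16 replicate 1 or 3. The Fkbp5 call was lost without ZT4 replicate 1 or 3 or ZT16 replicate 1 or 2, and that of Cebpd without ZT0 replicate 1 or ZT12 replicate 2 or 3.

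When the 8 quadriceps groups were put in order of their mean, the highest groups of Errfi1 were both +0h groups, 217 ± 13.5 CPM at ZT12 and 192 ± 17.1 CPM at ZT0, which overlapped each other and no other group. Zbtb16 had both +3h groups on top, 211 ± 8.83 CPM at ZT12 and 194 ± 22.1 CPM at ZT0, overlapping each other, with a gap to sedentary ZT16 below. Cebpb had a single group on top, +0h at ZT12 with 43.5 ± 3.54 CPM, clear of the +0h group at ZT0 with 27.9 ± 1.57 CPM. Tsc22d3 had both ZT12 run groups on top, 526 ± 99.7 CPM at +3h and 496 ± 62.1 CPM at +0h, apart from the rest. Fkbp5 and Nr3c1 were highest at +3h of the ZT12 session, with means of 143 and 92.2 CPM, clear of the next group. For Fkbp5 this group, from 126 to 157 CPM, still overlapped +0h of the ZT12 session, where replicate 1 held 138 CPM. For Sgk1 the first 3 neighbouring pairs in the order overlapped and for Cebpd likewise, so no single group led.

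Across the 24 quadriceps libraries the log2 CPM of the genes ran together in part. Pearson's r was 0.90 between Sgk1 and Cebpd, 0.88 between Tsc22d3 and Cebpb and 0.81 between Fkbp5 and Zbtb16. It was -0.34 between Zbtb16 and Errfi1 and -0.38 between Nr3c1 and Errfi1. These values describe libraries that share their groups, and no test is attached.

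Outside the 8, the genes most like each of them among 10970 candidates with an average log2 CPM of at least 1 were named by the same r over the 24 libraries. For Errfi1 they were Kcne4, a potassium channel subunit (r = 0.96), Fosl2, an AP-1 transcription factor (0.95), and Dusp1, a phosphatase of MAP kinases (0.94). Cebpd was most like Nfkbia, which encodes the NF-κB inhibitor IκBα (0.93), Cherp (0.90) and Snrk (0.89). For Sgk1 they were Ddit4, an inhibitor of mTORC1 signalling (0.87), Wee1 (0.86) and Arrdc3 (0.86), and for Tsc22d3 Arrdc3 (0.92), Uba1 (0.92) and the water channel gene Aqp1 (0.91). Cebpb was most like Lrrc8a (0.90), Aqp1 (0.89) and Leng9 (0.88). Fkbp5 was most like Foxo1, a transcription factor of fasting and atrophy programmes (0.88), Odf3l2 (0.88) and Prima1 (0.87). The genes most like Zbtb16 were Cpm, which encodes carboxypeptidase M (0.92), Mast2 (0.91) and 6430548M08Rik (0.91). Those most like Nr3c1 were Vdac2 (0.87), Esd (0.83) and Cntfr (0.82).

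Part of the genes whose products hold, prepare or assist the receptor passed in the run comparisons. Of 13 tested genes of the receptor machinery (chaperones, co-regulators, hormone-activating enzymes and the mineralocorticoid receptor gene Nr3c2), 6 passed at +0h of the ZT0 session, 5 at +0h of the ZT12 session and 6 at +3h of the ZT0 session, all raised, against 1 at +3h of the ZT12 session. Over all genes 6.82%, 4.6%, 13.6% and 17.2% passed in these comparisons, in that order. Hsp90aa1, which encodes inducible heat shock protein 90, was higher by 1.47 (SE 0.41), 2.19 (SE 0.42) and 1.81 (SE 0.42) in the first 3, and the co-chaperone gene Stip1 by 0.57, 0.54 and 0.51. At +3h of the ZT0 session Hsp90aa1 spread widely, at 314 ± 184 CPM (SD) in runners against 89.5 ± 42.3 CPM at ZT4. Its sedentary level was 37.3 ± 4.63 CPM at ZT12 and 94.9 ± 31.4 CPM at ZT0. The session difference at +3h passed for 2 genes, Ptges3 (-0.51, SE 0.11, adjusted p = 0.0183) and Stip1 (-0.55, SE 0.13, adjusted p = 0.0409). The median change of the 13 was 0.22, 0.18, 0.14 and -0.05.

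Among 24 other genes known to be induced by glucocorticoids, more passed at +3h than at +0h, as did more of all genes (6.82% and 4.6% at +0h, 13.6% and 17.2% at +3h). At +0h 9 were raised in the ZT0 session and 5 in the ZT12 session, with none lowered. At +3h 12 were raised in the ZT0 session, and 17 were raised and 1, Pik3r1 (-0.92, SE 0.23), lowered in the ZT12 session; Pik3r1 is named for being the only one lowered, after its value was seen. Their median change was 0.39 and 0.42 at +0h and 0.64 and 1.01 at +3h, against medians of all genes between -0.0048 and 0.00029. The numbers passing are not a test of the difference between the hours, which have different controls.

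Mt1 and Mt2, which encode metal-binding metallothioneins, were raised in all 4 run comparisons, Mt1 by 3.06, 2.65, 3.28 and 3.65 and Mt2 by 3.70, 3.39, 4.37 and 4.54 (ZT0 +0h, ZT12 +0h, ZT0 +3h and ZT12 +3h). At +0h the clock gene Per1 was raised in the ZT0 session (3.43, SE 0.40), and Dusp1 in both, from 48.8 to 225 CPM on average in the ZT0 session and by 2.13 (SE 0.30) in the ZT12 session. At +3h Trim63, which encodes a ubiquitin ligase of muscle breakdown, was raised by 2.28 (SE 0.28) in the ZT0 session and 3.55 (SE 0.29) in the ZT12 session. Pdk4, whose kinase restrains glucose oxidation, was raised by 3.77 (SE 0.31) in the ZT12 session, and the session difference passed for Pdk4 (2.44, SE 0.40, adjusted p = 0.00472) and for the ubiquitin ligase gene Fbxo32 (1.93, SE 0.32, adjusted p = 0.00471).

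**Figure D3:**
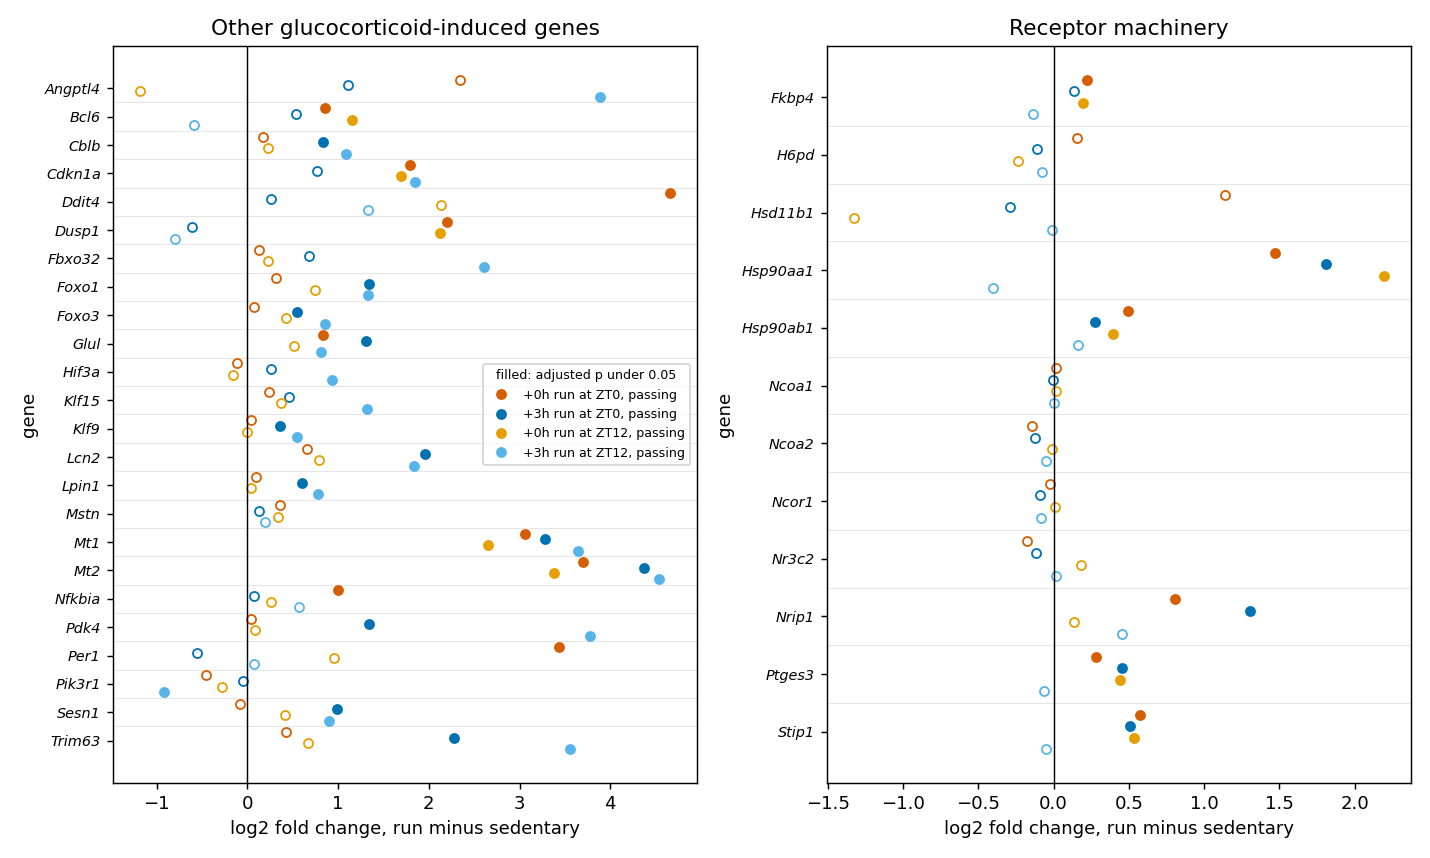
Log2 fold changes, run minus sedentary, of 24 other glucocorticoid-induced genes (left) and 12 of the 13 genes of the receptor machinery (right) in the 4 run comparisons; filled points passed at an adjusted p under 0.05. In the left panel 17 genes were raised at +3h of the ZT12 session (light blue) and 5 at +0h of that session (amber).

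Of 14 tested relatives and partners of the 8, 2 passed at +0h of each session, 4 at +3h of the ZT0 session and 5 at +3h of the ZT12 session. The shares of all genes were 6.82% and 4.6% at +0h and 13.6% and 17.2% at +3h. Hbegf, which encodes a ligand of the epidermal growth factor receptor that MIG6 inhibits, was raised at +3h by 2.79 (SE 0.44) in the ZT0 session and 2.51 (SE 0.43) in the ZT12 session. Its runners spread widely, at 71.5 ± 53.5 CPM (SD) and 79.2 ± 30.5 CPM, against 10.3 ± 0.51 and 13.9 ± 1.18 CPM at rest. Erbb3, a receptor gene of the epidermal growth factor receptor family, was lowered at +0h of the ZT0 session (-0.90, SE 0.17) and at +3h of both (-0.77 and -0.52, each SE 0.17). Tsc22d1, the closest relative of Tsc22d3 in the list, passed at +0h only, with rises of 0.41 and 0.45 (SE 0.08 each), and Tsc22d4 passed at +3h only, with changes of -0.44 and -0.39 (SE 0.09 each).

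Inflammatory genes that glucocorticoids are known to repress did not move one way. Of 7 tested, 2 were raised and 1 lowered at +0h of the ZT0 session, and 2 were raised at +0h of the ZT12 session, beside 6.82% and 4.6% of all genes passing. At +3h of the ZT0 session 1 was raised and 2 were lowered, and at +3h of the ZT12 session none passed, beside 13.6% and 17.2% of all genes. Ptgs2, which encodes cyclooxygenase-2, was raised by 2.46 (SE 0.65) and 4.09 (SE 0.61) at +0h and lowered at +3h of the ZT0 session (-2.33, SE 0.63). Its levels were low, at 1.12 ± 0.88 CPM (SD) against 0.20 ± 0.02 CPM at rest at +0h of the ZT0 session. At +0h of the ZT12 session they were 4.67 ± 2.08 CPM against 0.27 ± 0.08 CPM. At +3h of the ZT0 session runners held 0.25 ± 0.13 CPM against 1.29 ± 0.84 CPM at ZT4, and the groups overlapped. Ccl2, a monocyte attractant, was raised at +3h of the ZT0 session (3.04, SE 0.61). It was low and spread widely among the runners, at 3.19 ± 3.12 CPM against 0.39 ± 0.13 CPM at ZT4.

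The wheel experiment compared ZT4 and ZT16 under night and day wheel access, and these times alone do not give a daily course. As ZT4 lies in the day and ZT16 in the night, recent wheel running and a changed daily course cannot be told apart. With night access, 6 of the 8 genes were higher at ZT16 than at ZT4, Cebpb, Tsc22d3, Fkbp5, Zbtb16, Sgk1 and Errfi1, and the groups did not overlap for any of the 6. With day access, 1 of the 8, Fkbp5, was higher at ZT16. Over all 14523 genes tested, 18.8% passed between the times with night access and 14.9% with day access, and 21.3% and 20.3% did not overlap. The time difference itself changed with the schedule for Cebpb, Tsc22d3 and Errfi1, 3 of the 8, and for 9.74% of all genes. Each time comparison uses 8 of the 16 wheel libraries, and the test of the change with schedule uses all 16.

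Tsc22d3 showed this most evenly. With night access it was at 108, 102, 106 and 106 CPM at ZT4 and at 273, 243, 337 and 222 CPM at ZT16, and with day access at 207, 153, 172 and 190.4 CPM at ZT4 and at 221, 198, 188 and 237 CPM at ZT16. Every day-access library at ZT4 was above every night-access library at ZT4, and at ZT16 the schedules overlapped. The time difference was 1.35 (SE 0.12, adjusted p = 4.29e-06) with night access and 0.23 (SE 0.12, adjusted p = 0.238) with day access. The difference between them was -1.12 (SE 0.17, adjusted p = 0.00100).

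Cebpb was at 9.41, 7.90, 7.83 and 6.35 CPM at ZT4 and 20.5, 22.3, 25.8 and 20.2 CPM at ZT16 with night access. With day access the values were 12.8, 10.5, 12.4 and 11.8 CPM at ZT4 and 20.9, 13.6, 12.8 and 8.16 CPM at ZT16. The clear step from ZT4 to ZT16 was present with night access only; with day access 1 library of 4 at ZT16 reached the night-access range. The time difference was 1.50 (SE 0.22, adjusted p = 0.000361) with night access and 0.22 (SE 0.21, adjusted p = 0.563) with day access, and -0.05 without that library, day-access ZT16 replicate 1. The 2 differed by -1.28 (SE 0.31, adjusted p = 0.0186).

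Errfi1 moved less. With night access it was at 18.0, 13.0, 12.7 and 13.0 CPM at ZT4 and 20.3, 19.6, 22.1 and 18.8 CPM at ZT16, and with day access at 20.9, 16.4, 17.0 and 16.8 CPM and between 14.2 and 17.9 CPM (mean 15.8). The means of the times were in opposite order under the schedules, but with day access the times overlapped and their difference did not pass. The time difference was 0.51 (SE 0.11, adjusted p = 0.00304) with night access and -0.17 (SE 0.11, adjusted p = 0.335) with day access, a difference of -0.68 (SE 0.15, adjusted p = 0.00940).

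Fkbp5 passed between the times under both schedules. It was at 32.8, 35.3, 30.3 and 51.0 CPM at ZT4 and 88.2, 124, 88.7 and 72.2 CPM at ZT16 with night access, and at 40.6, 42.3, 48.8 and 53.0 CPM and 189.7, 125, 61.6 and 78.7 CPM with day access. ZT16 was above ZT4 in both without overlap. The time differences were 1.31 (SE 0.32, adjusted p = 0.0118) and 1.30 (SE 0.31, adjusted p = 0.0148), and they differed by -0.02 with an SE of 0.44, which leaves room for a sizeable difference either way. With the compared groups alone the day-access difference had an adjusted p of 0.0710.

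Zbtb16 had a time difference of 1.00 (SE 0.25, adjusted p = 0.0134) with night access, from 57.2, 70.8, 52.0 and 49.7 CPM at ZT4 to 127, 137, 110.0 and 86.3 CPM at ZT16. With day access it was at 80.3, 63.6, 94.2 and 135 CPM at ZT4 and 126, 96.2, 70.4 and 76.1 CPM at ZT16, which overlapped. The change with schedule, -1.02 (SE 0.35), did not pass with edgeR (adjusted p = 0.0882) and passed with DESeq2 (adjusted p = 0.0384), and with edgeR without day-access ZT4 replicate 2 (-1.17) or ZT16 replicate 1 (-1.21). Sgk1 with night access went from 104, 82.9, 79.6 and 81.1 CPM to 129, 124, 128 and 184 CPM (0.70, SE 0.19, adjusted p = 0.0199), a call that was lost without ZT4 replicate 2, 3 or 4 or ZT16 replicate 4 (changes of 0.55 to 0.68). Neither Cebpd (0.70, SE 0.41) nor Nr3c1 (0.17, SE 0.07) passed, though Nr3c1 did without ZT16 replicate 4 (0.23, adjusted p = 0.0197).

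**Figure D4:**
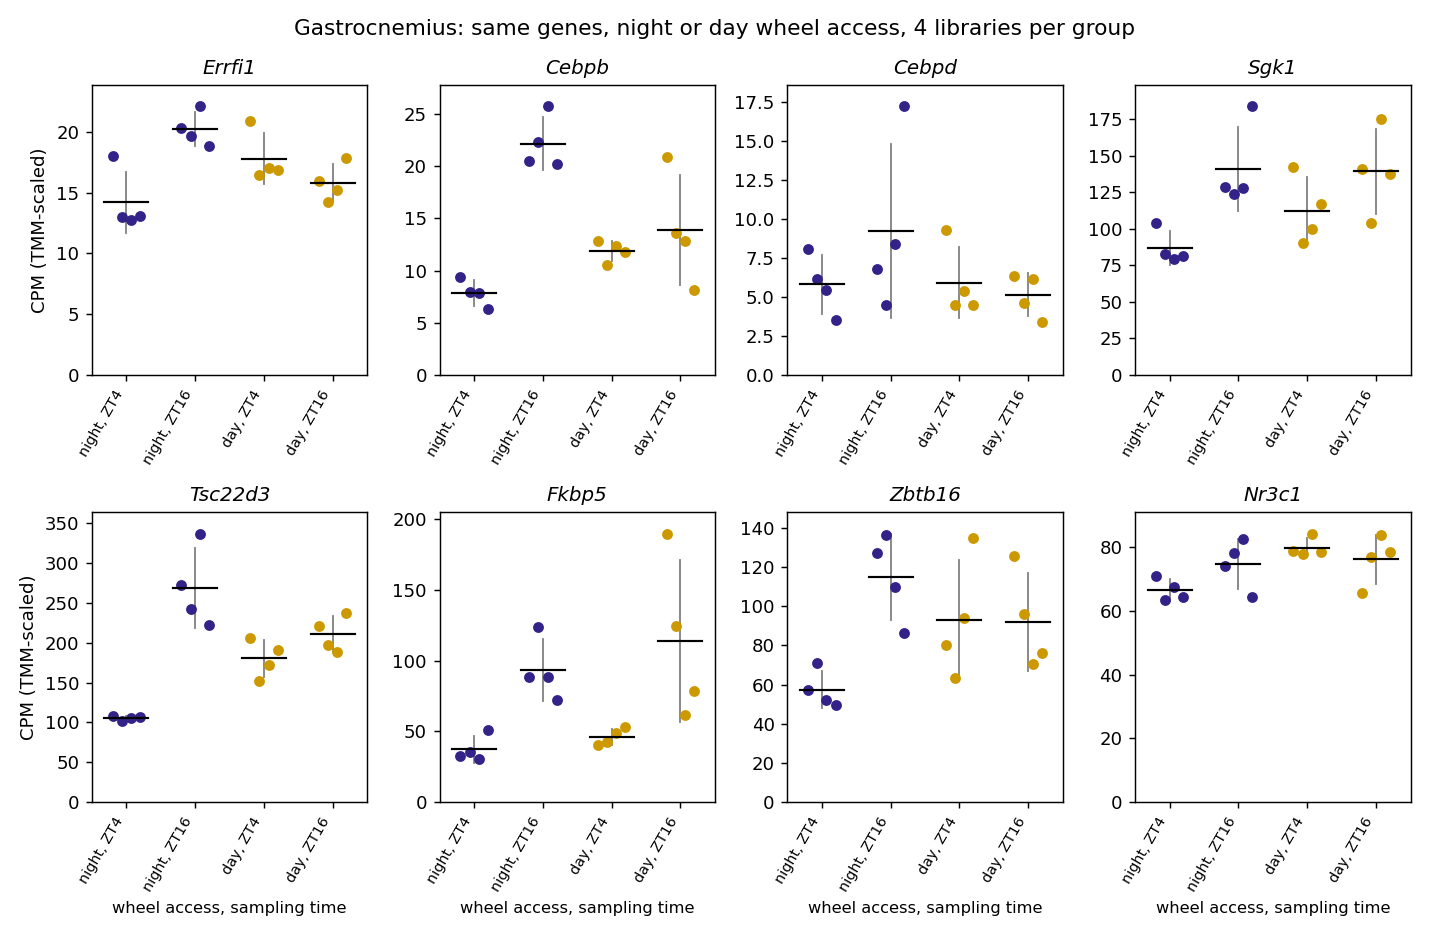
Expression of the 8 genes in gastrocnemius in CPM on a linear axis starting at 0, for night (dark blue) and day (yellow) wheel access at ZT4 and ZT16; points are single libraries, black bars group means and grey lines 1 SD. Tsc22d3 rises from about 106 to 268 CPM on average with night access, while its day-access means are 180.5 and 211 CPM.

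Read by sampling time, the schedules differed for 2 of the 8 genes at ZT4, against 13.1% of all genes, and for 0 of the 8 at ZT16, against 0.565%. Before adjustment 3 of the 8 had a p under 0.05 at ZT16, of which DESeq2 passed 1, Errfi1 (-0.35, adjusted p = 0.0446). At ZT4 the groups did not overlap for 3 of the 8 (21.1% of all genes), and at ZT16 for 1 (6.67%). Tsc22d3 was higher by 0.77 with day access at ZT4 (SE 0.12, adjusted p = 0.00109). Nr3c1 was at 78.8, 77.8, 84.3 and 78.6 CPM with day access and 70.9, 63.6, 67.5 and 64.4 CPM with night access, without overlap (0.26, SE 0.07, adjusted p = 0.0246); this call was lost without night-access replicate 2 or 4 or day-access replicate 3 (changes of 0.24 to 0.25). DESeq2 called 5 of the 8 at ZT4, adding Zbtb16 (0.70), Errfi1 (0.33) and Cebpb (0.60). Errfi1 also passed at ZT4 without night-access replicate 1 (0.46, adjusted p = 0.00298), and Cebpb at ZT16 without day-access replicate 1 (-0.95, adjusted p = 0.0280).

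Other glucocorticoid-induced genes split in the wheel groups. Of 24 tested, 10 were higher and 2 lower at ZT16 than at ZT4 with night access, and 3 higher and 7 lower with day access, beside 18.8% and 14.9% of all genes passing. The time difference changed with the schedule for 5, Per1, Klf15, Foxo3, Glul and Sesn1, all of which had a smaller or more negative step with day access. Klf15, a metabolic transcription factor, differed by -1.27 (SE 0.18, adjusted p = 0.000715) and Foxo3 by -0.73 (SE 0.15, adjusted p = 0.00470). In the receptor machinery 7 of 13 changed with the schedule, beside 9.74% of all genes, among them Hsp90aa1 (-1.49, SE 0.25, adjusted p = 0.00246), whose change from ZT4 to ZT16 was 0.80 with night access and -0.69 with day access. Endothelial markers summed to 245 to 261 CPM in the night-access ZT4 group and to 180 to 230 CPM in the other 3, with 4 of 6 genes lower in the day-access group at ZT4, and the part of endothelial RNA in these differences was not tested.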

How the data were processed

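RNA sequencing of 24 quadriceps and 16 gastrocnemius libraries was analysed. The authors deposited estimated counts per gene and lane, and the submitters' processing notes name kallisto 0.46.2, bcl2fastq 2.20.0.422 and the build GRCm38.p6; neither these nor the labels say how transcripts were joined into genes. Counts from both lanes were added per library, then rounded. Of 23621 genes, 23614 had a symbol.

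Each muscle was fitted separately with edgeR 4.0.16 (R 4.3.3): TMM scaling, the default filter (minimum count 10; 15097 genes in quadriceps, 14523 in gastrocnemius), a robust quasi-likelihood fit of group means, and Benjamini-Hochberg adjustment over all genes tested. Libraries have separate animal tags, so p-values measure the spread between animals. Runners at +0h were compared with sedentary mice at the session start, and runners at +3h with those of the nearest later time. The code was tested on simulated data.

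The members and lists were chosen with earlier results of these data known. From each list, up to 4 genes with the smallest p among those passing were named per comparison, and for each member the 3 most correlated genes; further genes were named after their values were seen, such as Per1 in the wheel groups and Hsp90aa1 at ZT0. The values of 1 receptor machinery gene are not reported here. Alternatives were DESeq2 1.42.0, no filter, a replicate block, only the compared groups, another sedentary control and leaving out each library. Promoter windows came from a RefSeq table on GRCm38.p6; only their upstream 250 bases were used. Figures were drawn with matplotlib 3.10.9.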

Additional observations from a re-analysis of the deposited data

Results flagged for a closer look

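In groups of 4 gastrocnemius libraries, 5 of 32 sets of values had 1 library far from the other 3 by Dixon's test, where chance gives about 1 in 20. Sgk1 was at 104 CPM in night-access ZT4 replicate 1, against 79.6 to 82.9 CPM in the others, and at 184 CPM in night-access ZT16 replicate 4, against 124 to 129 CPM. Errfi1 was at 18.0 CPM in night-access ZT4 replicate 1, the same library, against 12.7 to 13.0 CPM, and at 20.9 CPM in day-access ZT4 replicate 1, against 16.4 to 17.0 CPM. Nr3c1 was at 84.3 CPM in day-access ZT4 replicate 3, against 77.8 to 78.8 CPM.

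Responses that differed between groups by a test of the difference were those of Sgk1 between the sessions at +3h (1.42, edgeR adjusted p = 0.00980), and the change of the time difference with wheel schedule of Tsc22d3 (-1.12, adjusted p = 0.00100), Errfi1 (-0.68, adjusted p = 0.00940) and Cebpb (-1.28, adjusted p = 0.0186).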

How the results depend on the processing

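Of 1290 values recomputed for 101 results, 1121 kept their direction and side of the threshold, or stayed within 1.5 times the reported count. With only the compared groups in the fit, genes passing numbered 528 (+0h ZT0), 381 (+0h ZT12), 1098 (+3h ZT0), 1 (session difference +0h), 113 (session difference +3h), 1588 (sedentary ZT12 against ZT0) and 38 (schedule at ZT16), and members 2 (+3h ZT0), 3 (+3h ZT12) and 0 (time with day access). DESeq2 called 18 and 448 genes for the session differences at +0h and +3h and 374 for schedule at ZT16, with 2 members at +3h, 5 for schedule at ZT4 and 1 at ZT16. Members at +3h ZT0 were 2 without the filter. With the other sedentary control 1180 genes passed at +0h ZT12 and 2 members at +3h ZT0, and directions turned for Nr3c1 (0.084) and Zbtb16 (0.61) at +0h ZT0, Fkbp5 (-0.22) and Zbtb16 (-0.61) at +0h ZT12 and Errfi1 (0.041) at +3h ZT12; the cause was not tested beyond the controls' own levels.

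Leaving out 1 library, genes passing ranged from 391 to 1321 (+0h ZT0), 384 to 657 (+0h ZT12), 1729 to 2308 (+3h ZT12), 0 to 326 and 107 to 236 (session differences at +0h and +3h), 1563 to 2535 (among sedentary times), 1291 to 2354 (sedentary ZT12 against ZT0), 1141 to 1652 (schedule at ZT4) and 19 to 164 (schedule at ZT16). Members ranged from 3 to 5 (+0h ZT0), 2 to 5 (+3h ZT0), 3 to 5 (+3h ZT12), 1 to 2 (session difference +3h), 1 to 3 (schedule at ZT4) and 0 to 1 (schedule at ZT16). Changes ranged across 0 for Zbtb16 (-0.24 to 0.074) at +0h ZT0, Fkbp5 (-0.051 to 0.86) and Zbtb16 (-0.0072 to 0.64) at +0h ZT12, Cebpd (-0.029 to 0.39) at +3h ZT0, Cebpb over time with day access (-0.046 to 0.41) and Fkbp5 for schedule by time (-0.38 to 0.19).

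Same-numbered libraries did not deviate together (mean r of -0.0038 in quadriceps and 0.0097 in gastrocnemius), so the numbers do not pair them. With the replicate block Fkbp5 at +3h ZT0 did not pass (1.02, adjusted p = 0.0526), Errfi1 passed for schedule at ZT4 (0.33, adjusted p = 0.0261), and no count moved by more than 1.5 times.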

Other observations

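Among the 24 other glucocorticoid-induced genes, treadmill +0h ZT12 replicate 1, in which Fkbp5 and Zbtb16 stood apart, was the highest of its 3 libraries for 21. Treadmill +3h ZT12 replicate 1, the lowest of its group for 7 of the 8 genes described above, was the highest for 0 of 24. Sedentary ZT12 replicate 2 was the highest for 17.

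In sedentary quadriceps Per1 was 3.31 higher at ZT12 than at ZT0 (SE 0.40, edgeR adjusted p = 3.7e-05), and Glul, which encodes glutamine synthetase, was 1.70 higher (SE 0.21, adjusted p = 3.23e-05). Nrip1, a co-repressor gene, was 1.84 higher (SE 0.19, adjusted p = 4.06e-06), while Hsp90aa1 was lower (-1.34, SE 0.41, adjusted p = 0.0357). Of the 24 other induced genes 8 were higher and 2 lower, and of 13 receptor machinery genes 2 were higher and 3 lower, against 16.1% of all genes passing.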
